A study of Mus musculus with 8 samples.

Results

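The genes followed here encode cytosolic danger sensors and the caspases they switch on: the inflammasome sensors Nlrp3, Nlrc4, Nlrp6, Nlrp1b and Aim2, the adaptor Pycard (also called ASC), the caspases Casp1 and Casp4, and the peptidoglycan receptors Nod1 and Nod2. They were chosen by symbol, and all 10 were measured, each by 1 probe set, among 30702 named genes. The tissue was colon of Rag1-/- mice of the C57BL/6 strain, which make no mature T or B cells, and both groups carry that knockout. In the inflamed group, 3 mice had received naïve T cells and were severely inflamed. In the control group, 5 mice had received regulatory T cells (Treg-injected) and were not inflamed. Per the labels, transfer was at 10 weeks of age and death 2 to 4 months later, while the listed age is 4 to 5 months, less than the longest of these spans would give. The sources used here name distal colon in one place and a strip of the whole colon in another. Each array was taken as 1 mouse, since the labels call the replicates biological.

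Inflammasomes are protein complexes that form in the cytosol when a sensor meets a microbial product or a sign of damage. Most sensors recruit Pycard, which brings in caspase-1. This protease cuts the precursors of interleukin-1 beta and interleukin-18, and it also cuts gasdermin D, whose free end makes pores in the cell membrane (pyroptosis). Mouse Casp4, often called caspase-11, binds bacterial lipopolysaccharide directly and cuts gasdermin D without caspase-1. Nod1 and Nod2 form no inflammasome of this kind; they sense fragments of bacterial cell wall and signal through the kinase Ripk2 to NF-kappaB. In the gut these sensors face the microbiota from both the epithelium and the myeloid cells below it.

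Values are the authors' log2 intensities. A gene is said to have risen or fallen when limma's adjusted p, corrected by the Benjamini-Hochberg method over all 30702 genes, was under 0.05, and each difference is inflamed minus control on the log2 scale with its standard error (SE) after ±. By this rule 4022 genes changed (13.1% of those tested), 2476 upward (8.06%) and 1546 downward (5.04%). The groups did not overlap, with all 3 inflamed values above or all 3 below the 5 control values, for 21.2% of all genes. Array pairs correlated at r = 0.994 to 0.997 among controls, at 0.986 to 0.995 among inflamed arrays and at 0.980 to 0.986 between groups, and inflamed replicate 2 stood apart from the other inflamed arrays (0.987 and 0.986). Xist, the transcript of the inactive X chromosome in females, was present on inflamed replicate 3 and on controls 3, 4 and 5 and low on the other arrays; the labels do not give sex. Probe sets that the array names as negative controls had medians of 4.92 to 5.11 per array, and a gene at or under that level may show background alone. Of 4 measured B cell markers none changed, and they averaged 4.77 to 4.80 on inflamed and 4.79 to 4.82 on control arrays. The 17 measured markers of colon epithelium averaged 10.97 to 11.19 on inflamed and 11.21 to 11.43 on control arrays. Among 7 genes of small intestine and liver, Lct, Alb and Apoa2 stayed under the negative control median on every array. Alpi, Fabp6, Ttr and Apoa4 lay above it on every array, so the list as a whole was not at background. On control arrays Alpi was at 8.55 to 9.69 and Fabp6 at 6.38 to 8.35, and both fell in inflamed colon.

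The promoters of the 3 genes that changed (Nlrc4, Nod2 and Nlrp6) are shown with those of Casp1 and Casp4, adjacent genes on chromosome 9. Each sequence is the 250 bases before the RefSeq gene start in GRCm38.p6, read 5′ to 3′ on the strand of the gene. Capitals mark matches, on either strand, to a loose form of the site bound by NF-kappaB: GGG and CC with any 5 bases between them.
Nlrc4 (chr17:74459109-74459358, minus strand): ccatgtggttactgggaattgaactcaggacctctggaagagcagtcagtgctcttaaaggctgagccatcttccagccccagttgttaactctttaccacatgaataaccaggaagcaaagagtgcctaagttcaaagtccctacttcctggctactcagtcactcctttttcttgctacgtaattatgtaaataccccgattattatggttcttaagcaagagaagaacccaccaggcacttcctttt
Nod2 (chr8:88647097-88647346, plus strand): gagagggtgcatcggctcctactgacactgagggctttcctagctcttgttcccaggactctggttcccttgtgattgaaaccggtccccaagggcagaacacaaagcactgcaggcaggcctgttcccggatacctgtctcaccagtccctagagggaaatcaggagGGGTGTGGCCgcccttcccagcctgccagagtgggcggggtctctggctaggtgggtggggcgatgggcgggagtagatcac
Nlrp6 (chr7:140920652-140920901, plus strand): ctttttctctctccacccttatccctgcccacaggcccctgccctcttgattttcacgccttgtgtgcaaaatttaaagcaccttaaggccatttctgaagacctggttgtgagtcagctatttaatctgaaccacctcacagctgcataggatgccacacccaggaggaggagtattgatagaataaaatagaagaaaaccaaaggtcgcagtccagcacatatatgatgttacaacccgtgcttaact
Casp1 (chr9:5298267-5298516, plus strand): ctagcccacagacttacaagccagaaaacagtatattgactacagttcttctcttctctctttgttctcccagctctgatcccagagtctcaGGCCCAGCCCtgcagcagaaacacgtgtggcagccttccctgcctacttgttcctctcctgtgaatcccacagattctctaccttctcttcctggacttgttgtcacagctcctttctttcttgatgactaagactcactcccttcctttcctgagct
Casp4 (chr9:5308599-5308848, plus strand): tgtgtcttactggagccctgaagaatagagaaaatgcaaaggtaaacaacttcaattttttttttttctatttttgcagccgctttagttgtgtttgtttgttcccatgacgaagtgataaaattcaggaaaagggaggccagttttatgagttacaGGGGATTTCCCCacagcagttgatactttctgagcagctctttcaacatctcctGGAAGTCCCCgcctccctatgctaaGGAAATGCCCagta

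Casp4 held 5 matches in 3 separate stretches, the first of which contains 3 overlapping matches, while Casp1 and Nod2 held 1 each and Nlrc4 and Nlrp6 held 0. All 10 genes had a promoter in the RefSeq table, some of them several, giving 14 windows of 250 bases before to 50 after the start. The loose kappaB letters occurred in 7 of these 14 windows, of Nod1, Nod2, Casp1, Casp4 and Nlrp3, and in 50.8% of all 32851 windows, so their presence by itself is common. The core of an interferon response element, a pair of GAAA stretches with any 2 bases between them, occurred in 0 of the 14 windows and in 3.44% of all windows. TTCNNNGAA, the site of STAT factors, occurred in 1 of the 14, a window of Nod1, and in 8.30% of all. No binding was measured here.

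Of the 10 genes, 2 rose and 1 fell, and the other 7 did not pass the threshold, where 8.06% of all genes rose, 5.04% fell and 13.1% changed either way. With so few genes, these counts are a description. Nlrc4 and Nod2 rose and Nlrp6 fell, with changes of under 2-fold each. Groups did not overlap for 7 of the 10, 6 of them higher and 1 lower in inflamed colon, where 12% of all genes were higher and 9.17% lower in this way. The median difference of the 10 was 0.32, against -0.013 over all genes. Casp4 and Nod1 had larger differences than Nod2 and narrowly missed the threshold. Tissue samples cannot tell fewer cells of a type from less RNA per cell, and this holds for every gene below.

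**Figure D1:**
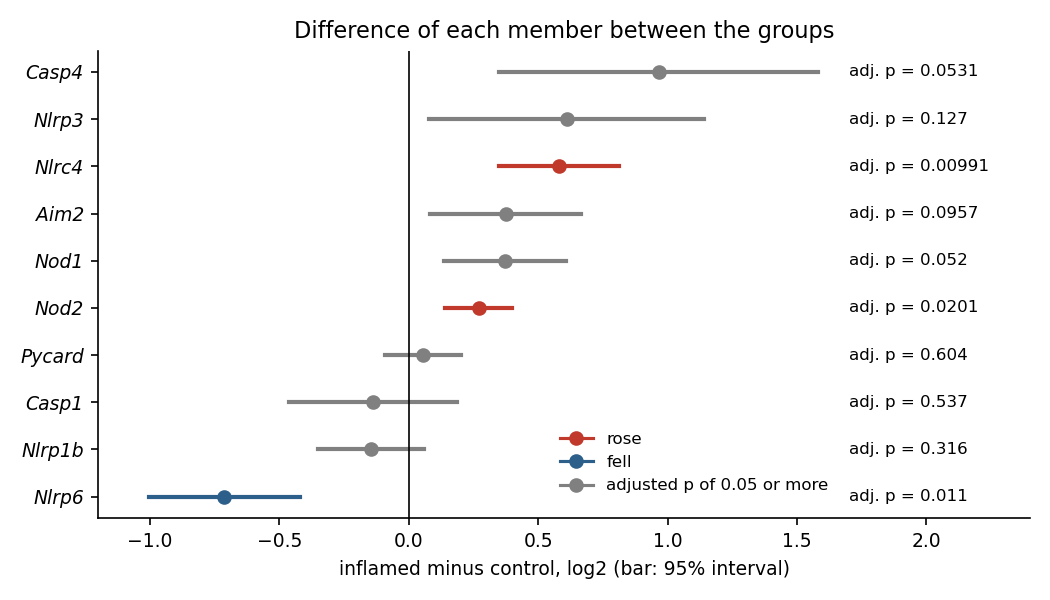
Difference of each gene between inflamed and control colon (inflamed minus control, log2; points are limma estimates, bars their 95% intervals, n = 3 inflamed and 5 control arrays, adjusted p at the right). Nlrc4 and Nod2 (red) rose and Nlrp6 (blue) fell; the intervals of Casp4, Nlrp3, Aim2 and Nod1 (grey) lie above 0, but their adjusted p did not pass.

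Nlrc4, the partner of the NAIP receptors for flagellin and bacterial secretion systems, was higher in every inflamed mouse. Its log2 intensity was 8.79, 8.90 and 8.76 on inflamed replicates 1 to 3, against 8.44, 8.10, 8.06, 8.40 and 8.18 on controls 1 to 5. The inflamed arrays lay close together and all above the highest control, and controls 1 and 4 were the highest of their group. The mean was 8.82 ± 0.071 in inflamed colon (SD, n = 3) and 8.24 ± 0.17 in controls (SD, n = 5), a rise of 0.58 ± 0.099 or 1.5-fold (limma adjusted p = 0.00991). The call held when any 1 array was left out (adjusted p = 0.00972 to 0.0373). The NAIP receptors themselves did not pass: Naip2 differed by -0.14 ± 0.070 (adjusted p = 0.236), Naip5 by -0.11 ± 0.078 (adjusted p = 0.375) and Naip6 by -0.28 ± 0.085 (adjusted p = 0.0731). These genes are paralogs, and their probe sets may share signal. Without inflamed replicate 2, Naip6 passed as lower, with a difference of -0.39 (limma adjusted p = 0.00845).

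Nlrp6, a sensor known from intestinal epithelium and its goblet cells, was the gene that fell. It stood at 7.97, 8.18 and 7.92 on inflamed replicates 1 to 3, against 8.95, 8.88, 8.80, 8.60 and 8.45 on controls 1 to 5. All inflamed values lay under the lowest control, that of control 5. The mean was 8.02 ± 0.14 in inflamed colon and 8.74 ± 0.21 in controls, a difference of -0.71 ± 0.12, or 1.64-fold lower (limma adjusted p = 0.0110), and the call held without any 1 array (adjusted p = 0.00869 to 0.0475). Epcam, a surface protein of all gut epithelial cells, was at 12.20 to 12.28 on inflamed arrays and 12.19 to 12.29 on controls, and 11 of 17 epithelial markers did not pass. Of the others 5 fell (Cdx1, Slc26a3, Car1, Aqp8 and Phgr1) and 1 rose (Krt20), where 5.04% of all genes fell and 8.06% rose. The largest fall was in Aqp8, a water channel gene of surface colonocytes, at -2.15 ± 0.41 (limma adjusted p = 0.0151). Krt20 differed by 0.58 ± 0.12 (limma adjusted p = 0.0199). The mean of the 17 markers differed by -0.25 and their median difference was -0.0052. Their part in the Nlrp6 difference was not tested.

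**Figure D2:**
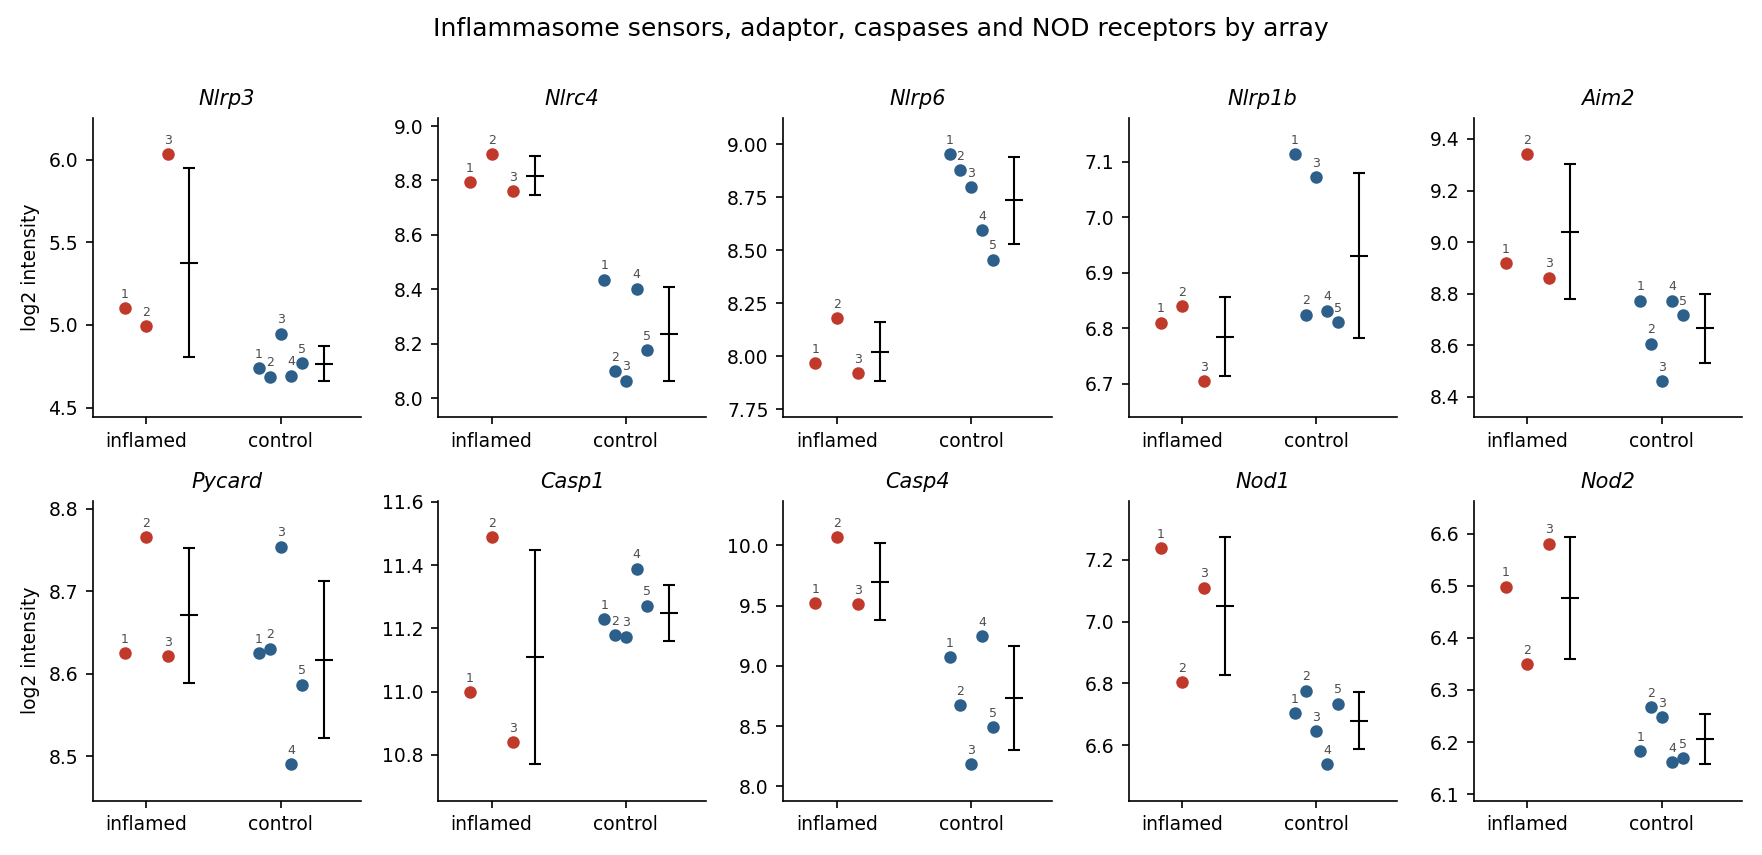
Log2 intensity of the 10 genes on every array (inflamed left in red, n = 3; control right in blue, n = 5; small figures are replicate numbers, bars mean ± SD; each panel has its own scale, which does not start at 0). The groups separate for Nlrc4, Nlrp6, Casp4, Nod1, Nod2, Aim2 and Nlrp3 and overlap for Nlrp1b, Pycard and Casp1.

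Nlrp3, the sensor that responds to potassium loss and many kinds of damage, was dim, and 1 mouse set much of the size of its difference. Its values were 5.10, 4.99 and 6.03 on inflamed replicates 1 to 3, against 4.74, 4.69, 4.95, 4.69 and 4.77 on controls 1 to 5. Only inflamed replicate 3 stood well clear, and 2 of 3 inflamed arrays and 0 of 5 control arrays were above their own negative control median. The difference was 0.61 ± 0.23 (limma adjusted p = 0.127), and 0.28 without inflamed replicate 3 (limma adjusted p = 0.0728). The list mean of the neutrophil markers was also highest on that array, at 8.33, against 6.46 and 6.76 on inflamed replicates 1 and 2 and 5.08 to 5.26 on controls. The list mean of monocyte and macrophage markers was highest there too, at 7.59, against 7.31 and 7.50 on inflamed replicates 1 and 2. Single markers did not all follow. Ly6g, Cd68, Cd14, Lyz2 and Mrc1 were highest on inflamed replicate 2, Cx3cr1 on inflamed replicate 1 and the others of both lists on inflamed replicate 3. The part of either list in the Nlrp3 value was not tested. Of 12 neutrophil markers 10 lay above all controls on every inflamed array and 4 rose, against 12% and 8.06% of all genes.

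Aim2, which binds double-stranded DNA in the cytosol, was at 8.92, 9.34 and 8.86 on inflamed replicates 1 to 3, against 8.77, 8.61, 8.46, 8.77 and 8.72 on controls 1 to 5. The groups did not overlap, but inflamed replicates 1 and 3 lay close above the highest controls. The difference was 0.38 ± 0.12 (limma adjusted p = 0.0957), and it did not pass without any 1 array either (adjusted p = 0.0803 to 0.181). Nlrp1b, another of the inflammasome sensors, was at 6.81, 6.84 and 6.71 in inflamed colon, against 7.11, 6.82, 7.07, 6.83 and 6.81 in controls. These ranges overlap, with a difference of -0.15 ± 0.087 (limma adjusted p = 0.316). Nlrp1b has close relatives in the genome, and its probe set may share signal with them.

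The adaptor Pycard and its protease Casp1 showed no difference beyond the spread between mice. Pycard was at 8.63, 8.77 and 8.62 on inflamed replicates 1 to 3, against 8.63, 8.63, 8.75, 8.49 and 8.59 on controls 1 to 5, a difference of 0.054 ± 0.063 (limma adjusted p = 0.604). The 95% interval of that difference ran from -0.094 to 0.20. Casp1 was at 11.00, 11.49 and 10.84 in inflamed colon, against 11.23, 11.18, 11.17, 11.39 and 11.27 in controls. Inflamed replicate 2 lay above all controls, and inflamed replicates 1 and 3 lay under them. The difference was -0.14 ± 0.14 (limma adjusted p = 0.537), and without inflamed replicate 2 Casp1 passed as lower, with a difference of -0.33 (limma adjusted p = 0.0323).

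Casp4, the lipopolysaccharide receptor and protease of the non-canonical pathway, had the largest difference of the 10. Its log2 intensity was 9.52, 10.07 and 9.51 on inflamed replicates 1 to 3, against 9.07, 8.68, 8.18, 9.25 and 8.49 on controls 1 to 5. Every inflamed array was above every control, but the controls spread over 1.06 log2 units, with controls 1 and 4 closest to the inflamed arrays. The mean was 9.70 ± 0.32 in inflamed colon and 8.73 ± 0.43 in controls, a difference of 0.97 ± 0.26 or 1.95-fold (limma adjusted p = 0.0531). It passed when control 4 was left out (limma adjusted p = 0.0439), under quantile normalization (adjusted p = 0.0413), with array medians aligned (adjusted p = 0.0382), with dim genes left out (adjusted p = 0.0289) and with an intensity trend and robust variances (adjusted p = 0.0488). It did not pass without any other single array (adjusted p up to 0.144, without inflamed replicate 2), with the Xist pattern as a term (limma adjusted p = 0.0958), with array weights or with a floor on low values. Casp12, the next gene along chromosome 9, rose by 0.93 ± 0.16 (limma adjusted p = 0.0110).

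Casp4 and Casp1 lie side by side on chromosome 9 in the same orientation, and their values are set side by side as a description, since this pair was chosen after its values were seen. The log2 value of Casp4 minus that of Casp1 was between -1.48 and -1.33 on inflamed arrays and between -2.99 and -2.14 on control arrays, so the group means of this gap differed by 1.11 units. As the sequences above show, Casp4 held more kappaB letters than Casp1 before its start, which is a description of the letters alone.

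Nod2, the receptor for muramyl dipeptide, rose by a small amount. It was at 6.50, 6.35 and 6.58 on inflamed replicates 1 to 3, against 6.18, 6.27, 6.25, 6.16 and 6.17 on controls 1 to 5, with every inflamed array above every control. The rise was 0.27 ± 0.055 or 1.21-fold (limma adjusted p = 0.0201). It ended without inflamed replicate 1 (adjusted p = 0.0725), control 4 (adjusted p = 0.0517) or control 5 (adjusted p = 0.0510). Nod1, the receptor for a diaminopimelic acid peptide of cell walls, was at 7.24, 6.80 and 7.11 on inflamed replicates 1 to 3, against 6.70, 6.78, 6.65, 6.54 and 6.73 on controls 1 to 5. Inflamed replicate 2 was barely above the highest control, and the other inflamed arrays stood clear. The difference of 0.37 ± 0.10 did not pass (limma adjusted p = 0.0520); it passed without inflamed replicate 2 (limma adjusted p = 0.00881), under quantile normalization (adjusted p = 0.0409), with array medians aligned (adjusted p = 0.0206), with dim genes left out (adjusted p = 0.0316) and with array weights (adjusted p = 0.00568). It did not pass without any other single array (limma adjusted p up to 0.154, without inflamed replicate 1), with the Xist pattern as a term (adjusted p = 0.0965) or with a floor on low values.

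The 3 inflamed mice did not rank alike across the genes. Inflamed replicate 2, the array that stood apart from the others, was the highest of the 3 for 7 genes (Nlrc4, Nlrp6, Nlrp1b, Aim2, Pycard, Casp1 and Casp4), and inflamed replicate 3 was the lowest for the same 7. For the other 3 genes (Nlrp3, Nod1 and Nod2) inflamed replicate 2 was the lowest. Nlrc4 had the narrowest of the separated inflamed ranges, at 0.14 log2 units, and Nlrp3 the widest, at 1.04.

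Among arrays without Xist (2 inflamed, 2 control), Nlrc4 differed by 0.58, Nlrp6 by -0.84, Nod2 by 0.20 and Casp4 by 0.92. Among arrays with Xist (1 inflamed, 3 control) the differences were 0.55 for Nlrc4, -0.70 for Nlrp6, 0.39 for Nod2 and 0.87 for Casp4. None of these passed within so few arrays, and the lone inflamed array was assumed to vary like the controls. With the Xist pattern as a term, the calls of Nlrc4 (limma adjusted p = 0.0238), Nlrp6 (adjusted p = 0.00569) and Nod2 (adjusted p = 0.0352) were kept. The difference of Casp1 was 0.039 among arrays without Xist and -0.44 among those with it.

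Among the substrates of these proteases, Il1b rose and Il18 did not pass. Il1b, the gene of interleukin-1 beta, was at 8.35, 8.78 and 10.50 on inflamed replicates 1 to 3, against 5.47, 5.18, 5.08, 5.03 and 5.13 on controls 1 to 5, and rose by 4.04 ± 0.44 (limma adjusted p = 0.00187). Control values near the negative controls make the size of that rise uncertain. Il18, the gene of the other cytokine that caspase-1 matures, was at 6.20, 7.57 and 6.69 in inflamed colon, against 7.31, 7.66, 7.49, 7.72 and 7.49 in controls. Inflamed replicates 1 and 3 lay under every control and inflamed replicate 2 among them. The difference of -0.72 ± 0.28 did not pass (limma adjusted p = 0.143), but did without inflamed replicate 2, at -1.09 (limma adjusted p = 0.00911). The log2 gap of Il1b over Il18 was 1.21 to 3.82 on inflamed arrays and -2.69 to -1.85 on control arrays, and the group means differed by 4.75. This pair too was chosen after its values were seen and is a description.

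Gsdmd, the gene of gasdermin D, was at 10.20, 9.85 and 10.09 on inflamed replicates 1 to 3, against 9.28, 9.21, 9.24, 9.33 and 9.20 on controls 1 to 5. The groups were well apart, and it rose by 0.79 ± 0.076 (limma adjusted p = 0.0012), also without any 1 array. Gsdme, a related pore former cut by caspase-3, fell by 0.53 ± 0.11 (limma adjusted p = 0.0200). Its call ended without inflamed replicate 1 (adjusted p = 0.0699) or control 4 (adjusted p = 0.0521). Of the 8 measured genes of substrates and pore formers, 4 rose and 1 fell, where 8.06% of all genes rose and 5.04% fell. The median difference of the 8 was 0.44, against -0.013 over all genes. Besides Il1b and Gsdmd, the alarmin cytokine genes Il1a and Il33 rose, by 2.95 ± 0.52 (limma adjusted p = 0.0111) and by 1.32 ± 0.28 (adjusted p = 0.0233). Both were at or under the negative control level in controls, with means of 4.02 and 4.94. A floor on low values ended the Il1a call (adjusted p = 0.0718), and the Il33 call ended without inflamed replicate 1 or any 1 of controls 1 to 4 (adjusted p = 0.0508 to 0.0579).

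**Figure D3:**
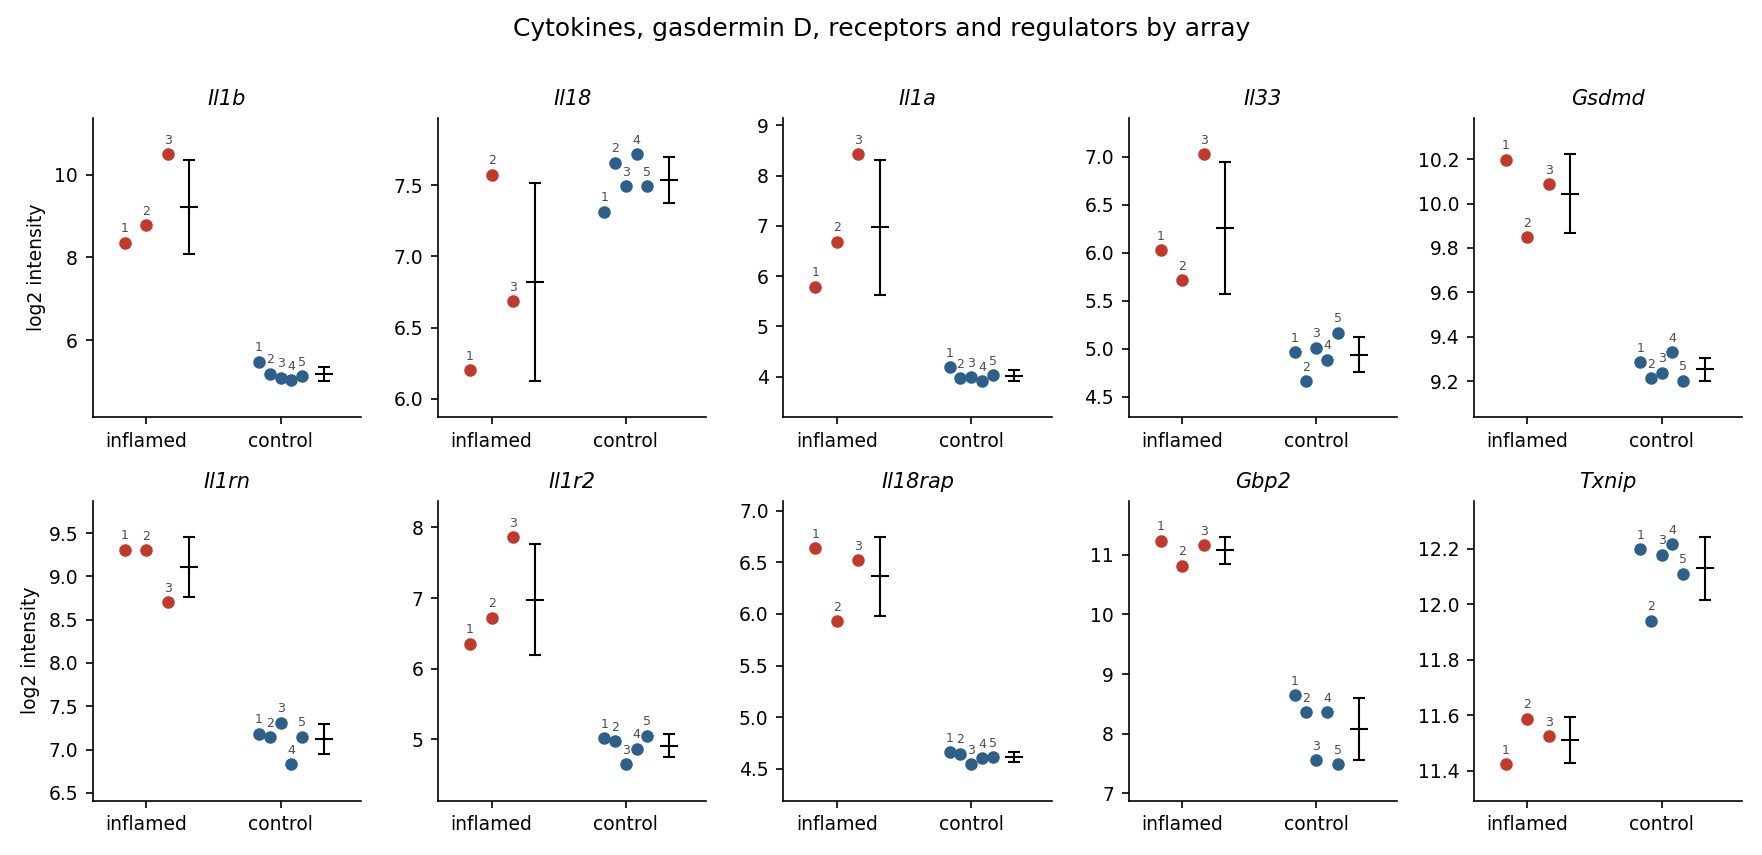
Log2 intensity of cytokines, gasdermin D, receptors and regulators on every array (inflamed left in red, n = 3; control right in blue, n = 5; small figures are replicate numbers, bars mean ± SD; each panel has its own scale, which does not start at 0). Il1b is above 8 on all inflamed arrays and at 5.03 to 5.47 on controls, while Il18 is under all controls on inflamed replicates 1 and 3 and among them on inflamed replicate 2.

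Of 12 measured receptors and inhibitors of interleukin-1 and interleukin-18, 7 rose, 0 fell and 5 did not pass. The median difference was 0.45, against -0.013 over all genes, of which 8.06% rose and 5.04% fell. The decoy receptor gene Il1r2 rose by 2.07 ± 0.31 (limma adjusted p = 0.00625), and Il1rn, the gene of the interleukin-1 receptor antagonist, rose by 1.98 ± 0.16 (adjusted p = 0.000663). Il1rn was at 9.31, 9.31 and 8.70 on inflamed replicates 1 to 3, against 7.18, 7.14, 7.31, 6.83 and 7.15 on controls 1 to 5. Il18rap, the accessory chain of the interleukin-18 receptor, rose by 1.75 ± 0.15 (limma adjusted p = 0.000729), with a control mean of 4.61, under the negative control level. All 3 calls held without any 1 array.

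Among 22 measured regulators and triggers of inflammasomes 9 rose, 1 fell and 12 did not pass. The median difference was 0.40, against -0.013 over all genes, of which 8.06% rose and 5.04% fell. Gbp2, a guanylate-binding protein that coats bacteria and helps expose their lipopolysaccharide and DNA, was at 11.24, 10.82 and 11.17 on inflamed replicates 1 to 3, against 8.64, 8.36, 7.55, 8.36 and 7.48 on controls 1 to 5. That is a rise of 3.00 ± 0.30 or 7.98-fold (limma adjusted p = 0.00131). Ripk3, a kinase of necroptosis, rose by 1.57 ± 0.25 (limma adjusted p = 0.00827). Cd14, a lipopolysaccharide co-receptor that also marks monocytes, rose by 1.44 ± 0.11 (adjusted p = 0.000619). Nek7, the kinase that NLRP3 needs to assemble, rose by 0.56 ± 0.091 (limma adjusted p = 0.00841). Txnip, a thioredoxin-binding protein reported to bind NLRP3, was the 1 gene of the list that fell, by 0.62 ± 0.071 (adjusted p = 0.00222). These 5 calls held without any 1 array; Nek7 and Txnip were named after their values were seen.

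Of 13 further NLR and sensor genes measured, 3 rose, 0 fell and 10 did not pass. The median difference was 0.10, against -0.013 over all genes, of which 8.06% rose and 5.04% fell. Ciita, which encodes the master activator of MHC class II genes rather than an inflammasome sensor, rose by 1.77 ± 0.30 (limma adjusted p = 0.00953). Mefv, the gene of pyrin, a sensor found in neutrophils and monocytes, rose by 1.07 ± 0.073 (adjusted p = 0.000361) over a control mean of 4.37, under the negative control level. Nlrp10, an NLR without the leucine-rich repeats of the others, rose by 0.54 ± 0.11 (limma adjusted p = 0.0215). That call ended without control 2, 3, 4 or 5 (adjusted p = 0.052 to 0.0552).

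Of 22 measured partners of Nod1 and Nod2 in signalling, 7 rose, 1 fell and 14 did not pass. The median difference was 0.15, against -0.013 over all genes, of which 8.06% rose and 5.04% fell. Ripk2, the kinase that both receptors use, had no probe set with a single gene and is not analysed here. Tnfaip3, the gene of the ubiquitin-editing inhibitor A20, rose by 1.28 ± 0.16 (limma adjusted p = 0.00275), and Irgm1, an immunity-related GTPase linked to autophagy, rose by 0.68 ± 0.12 (adjusted p = 0.0101). Slc15a3, an endosomal transporter that delivers muramyl dipeptide to the cytosol, rose by 0.61 ± 0.13 (limma adjusted p = 0.0205), a call that ended without inflamed replicate 1 (adjusted p = 0.0624). The related transporter gene Slc15a4 was the 1 that fell, by 0.34 ± 0.086 (limma adjusted p = 0.0439), and that call ended when any 1 of the 8 arrays was left out (adjusted p = 0.0522 to 0.119).

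Cell type markers moved with the groups, where 8.06% of all genes rose and 5.04% fell. Monocyte and macrophage markers averaged 7.31 to 7.59 on inflamed and 6.15 to 6.32 on control arrays, with 11 of 13 risen. T cell markers averaged 6.33 to 6.97 on inflamed and 5.33 to 5.45 on control arrays, with 7 of 8 risen. Smooth muscle markers averaged 9.76 to 9.89 on inflamed and 10.24 to 10.72 on control arrays, with 7 of 8 fallen. Nlrp3, Aim2, Nlrc4, Casp4, Nod2, Pycard and Casp1 are all known to be used by myeloid cells. Of these only Nlrc4 and Nod2 passed. Casp4 differed by 0.97 ± 0.26, Nlrp3 by 0.61 ± 0.23 and Aim2 by 0.38 ± 0.12, while Pycard differed by 0.054 ± 0.063 and Casp1 by -0.14 ± 0.14. The part of the marker shifts in the differences of these genes was not tested.

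**Figure D4:**
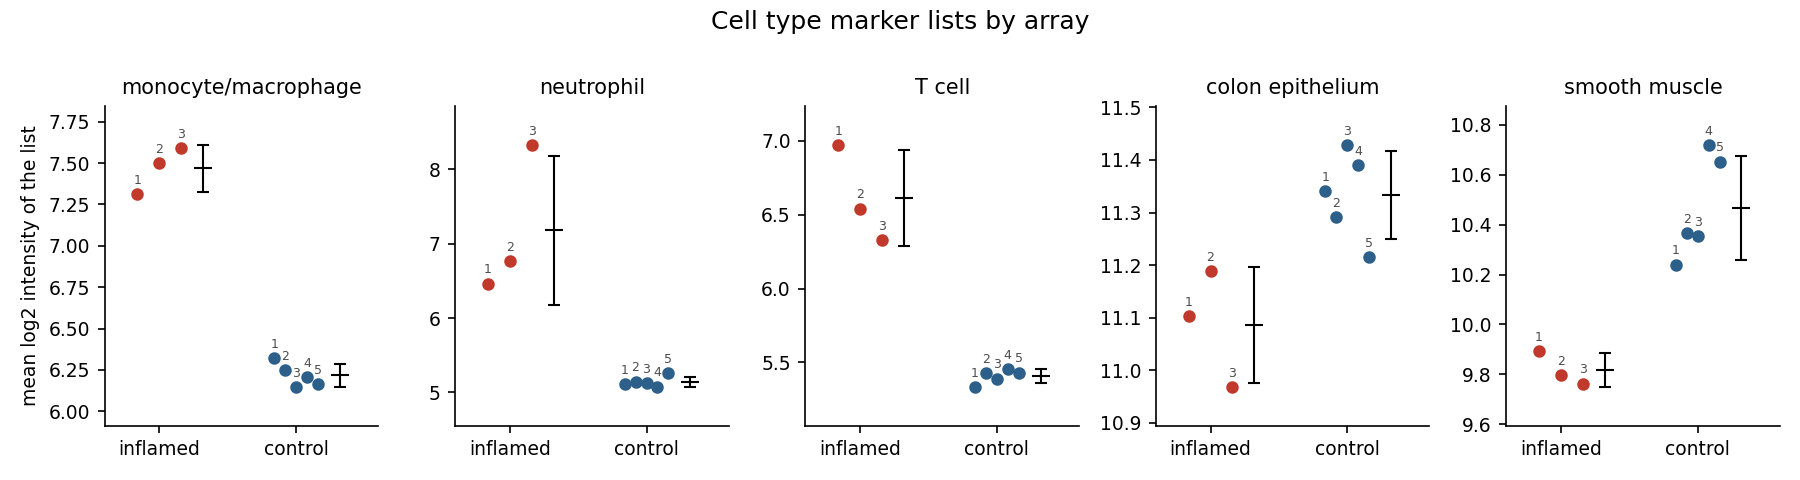
Mean log2 intensity of 5 marker lists on every array (inflamed left in red, n = 3; control right in blue, n = 5; small figures are replicate numbers, bars mean ± SD; each panel has its own scale, which does not start at 0). Monocyte and macrophage, neutrophil and T cell markers are higher on all inflamed arrays. The means of the epithelial and smooth muscle lists are lower, by 0.25 and 0.65. Of the 17 epithelial markers 11 did not pass, and the median difference of the 17 was -0.0052.

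Genes with the most similar profile over the 8 arrays were found by the root mean square difference between 2 genes after each was centred on its own mean, among 14160 genes above the array median (predicted genes, clone names and small RNAs aside). Nearest to Nlrc4 were Gpd2, Rap1gds1 and Zfand5, at 0.045, 0.048 and 0.049 log2 units. Nearest to Nlrp6 were Acads, Greb1l and Erbb2, at 0.075, 0.078 and 0.083. Nearest to Casp4, added because it had the largest positive difference, were the death receptor gene Fas, Muc4 and Nfkbiz, at 0.17, 0.20 and 0.20. So in log2 units the profile of Casp4 was matched less closely than those of Nlrc4 and Nlrp6. Casp4 also spread more among controls (SD 0.43) than Nlrc4 (SD 0.17) and Nlrp6 (SD 0.21), and distances were not scaled for spread. They take in the difference between groups and the spread within groups, and these parts were not separated.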

How the data were processed

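Colon RNA of 8 mice was hybridised to Affymetrix arrays after labelling with a whole-transcript kit, per the labels' protocols. The authors deposited 1 log2 intensity for each probe set and array; Affymetrix Expression Console and RMA stand in the submitters' processing notes, without settings or a genome build. That the scale is log2 was read from the range of the values. RMA can compress low signals, so folds of dim genes may be understated, which was not measured here. No detection calls were at hand, and the number of arrays limits the precision.

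Gene symbols of the array annotation were brought up to date with RefSeq (GRCm38.p6), which also gave the promoters. Of 65956 transcript clusters 31258 had a single gene; 441 of the 30702 genes had several probe sets, and the brightest was used. Inflamed and control arrays were compared by limma 3.58.1 under R 4.3.3, using eBayes after lmFit without covariates or trend. The fit was tested on simulated data.

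All 10 genes are named, with up to 3 of each of 5 pathway lists (those past the threshold with the largest differences) and the genes of most similar profile. Further genes were named after their values were seen. The genes and lists were chosen with earlier results of these data known. Lists are given by counts and medians, without a set test. Alternatives covered scaling, a floor, dim genes, probe sets, trend, array weights, a replicate block, the Xist pattern and each array left out; fits within each Xist pattern were added after seeing the data.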

Additional observations from a re-analysis of the deposited data

How the results depend on the processing

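Of the 10 genes, 2 rose and 1 fell; leaving out any 1 array gave 1 to 3 risen (1 without inflamed replicate 1 or control 5, 3 without inflamed replicate 2) and 1 to 2 fallen (2 without inflamed replicate 2). With dim genes left out, with array medians aligned or under quantile normalization 4 rose, Casp4 and Nod1 being added each time. The labels do not say whether the replicate numbers pair the mice. Deviations of same-numbered arrays correlated at -0.285, -0.053 and 0.069, and those of unlike-numbered arrays at -0.218 to 0.346. With so few arrays these values cannot settle whether mice were paired. With the replicate number as a block 0 genes passed limma's test, so 0 of the 10 rose, 0 fell, and 0 pathway genes rose or fell, against 4918 genes at an unadjusted p under 0.05. That fit leaves few residual degrees of freedom. Over all genes 4022 changed, and 2510 to 4573 with any 1 array left out, the lowest without inflamed replicate 1. Among arrays without Xist 0 genes passed (4597 at an unadjusted p under 0.05) and among arrays with Xist 731, with 0 of the 10 risen and 0 fallen in both; fewer arrays were fitted there, and Casp1 changed sign among arrays without Xist (0.039). Of the 77 measured pathway genes 30 rose and 3 fell, where 8.06% of all genes rose and 5.04% fell. With any 1 array left out 23 to 29 of the 77 rose and 1 to 5 fell. The count of 1 fallen came without inflamed replicate 1 or control 4, and that of 5 without inflamed replicate 2. For the 10 genes and for all genes, the other alternatives (the Xist term, array weights, a floor, trend with robust variances, and both other ways to handle probe sets) moved no count of calls by over 1.5 times; the pathway counts were recomputed only under quantile normalization, aligned medians, the replicate block and each array left out.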

Other observations

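Controls 1 and 4 were the 2 highest of the 5 controls for 3 of the 10 genes (Nlrc4, Aim2 and Casp4), an order noticed after these values were seen. Of 19352 genes above the array median, 8.69% had these 2 controls highest.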
